A study of Homo sapiens with 79 samples.

Results

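The intergenic long noncoding RNAs described here are the genes whose symbol is LINC followed by digits, the placeholder name given to long intergenic noncoding RNAs that have no other name. They were selected on measured values: of 454 such genes in a table of 48453 genes, the 83 with a mean of at least 1 FPKM over the 9 input libraries were kept. FPKM counts fragments per kilobase of transcript, scaled to the mapped fragments of the library. Because the input values chose the members, their levels in input and their differences from input are given as a description, and tests were made between the immunoprecipitations. No input library enters those differences, although the inputs share in the estimate of the spread.

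The study mapped the RNA partners of 24 proteins in K562, a human erythroleukemia cell line, by formaldehyde RNA immunoprecipitation and sequencing (fRIP). Cells were lightly fixed with formaldehyde and sonicated, and 1 antibody per protein was used to recover the protein with its RNA. All libraries came from this 1 line with no treatment or genetic change, and the input libraries hold the RNA of fixed lysate without immunoprecipitation. There were 70 fRIP libraries (3 per protein, 2 for STAG2 and for EZH2) and 9 inputs in 3 sets of 3. The study describes replicates as separate dates and lysates. The study set traditional RNA binding proteins (RBPs) beside chromatin-associated proteins (CAPs). Here 6 proteins were taken as RBPs (PABP, HUR, IMP1, ADAR, HNRNPU and HNRNPH1) and 18 as CAPs (WDR5, RBBP5, EZH2, SUZ12, DNMT1, CHD4, CHD1, CHD7, LSD1, PHF8, HDAC1, PCAF, CBP, CBX3, phospho-CBX3, CTCF, STAG2 and NUP98). This assignment was made for the comparison, and the study's text in 1 place counts CTCF among the RBPs.

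Long intergenic noncoding RNAs are transcribed by RNA polymerase II from their own promoters, and most are capped, spliced and polyadenylated like mRNAs. Many stay in the nucleus, where some act with chromatin regulators, while others are exported and act in the cytoplasm. LINC00657, now named NORAD, is an abundant cytoplasmic RNA best known for sequestering the Pumilio proteins through many copies of their binding element. LINC00116 and LINC00493 were later found to encode microproteins of the mitochondrion, mitoregulin (MTLN) and SMIM26. LINC00338 is the snoRNA host gene SNHG20, and LINC00152, also called CYTOR, is a mainly cytoplasmic RNA studied in cancer cells.

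Sequences are shown for LINC00657 and for both microprotein genes, because the WDR5 and SUZ12 results turn on the first and the PABP results on the other pair. They are from the GENCODE transcripts lifted to GRCh37 (hg19), the build the study aligned to. LINC00657 lies on chromosome 20 from 34633540 to 34638940, minus strand, as 1 exon of 5401 bases. The Pumilio element, searched as TGTANATA on the transcript strand with overlaps allowed, matched 15 times. Of 454 lncRNA transcripts within 10% of that length, 47.6% held at least 1 match and 3, LINC00657 included, held 15 or more. Of the 76 members with a sequence, 10 had any match, 13.2%, against 10.0% of 56926 lncRNA transcripts of all lengths. The element is in capitals in these 5 of the 15 windows, the first 3 matches, the 11th and the last:
LINC00657 chr20:34638107-34638130: aaggcctgTGTATATAatatgaaa
LINC00657 chr20:34637728-34637751: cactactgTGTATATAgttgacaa
LINC00657 chr20:34637627-34637650: tcacatttTGTAAATAcctttttg
LINC00657 chr20:34635896-34635919: ccctactgTGTATATAgcggacaa
LINC00657 chr20:34634269-34634292: agcctattTGTAAATAcctttgtt

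LINC00116 and LINC00493 are annotated as protein coding in that release. Their annotated open reading frames, stop codon included, have 57 and 95 codons, and the start and stop codons are in capitals. LINC00116 is on the minus strand of chromosome 2, within 110969106 to 111002997, and its frame lies in 1 block of the genome. LINC00493 is on the plus strand of chromosome 20, within 18547991 to 18550207, and its frame crosses an intron:
LINC00116 chr2:110969932-110970102: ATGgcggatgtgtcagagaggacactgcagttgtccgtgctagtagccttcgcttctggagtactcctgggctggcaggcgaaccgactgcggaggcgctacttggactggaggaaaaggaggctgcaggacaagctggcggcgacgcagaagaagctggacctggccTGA
LINC00493 chr20:18548123-18550049: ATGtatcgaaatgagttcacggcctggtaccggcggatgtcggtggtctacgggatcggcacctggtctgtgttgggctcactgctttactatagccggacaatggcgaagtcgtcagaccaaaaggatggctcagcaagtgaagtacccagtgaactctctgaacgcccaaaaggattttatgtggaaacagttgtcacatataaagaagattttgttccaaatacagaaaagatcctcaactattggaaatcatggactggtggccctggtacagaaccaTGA

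The 76 members with a matched sequence had transcripts of 160 to 9303 bases (median 1390), 1 to 12 exons (median 3) and a GC content of 34.7 to 70.4% (median 48.1%). In the GENCODE release, 64 members were typed as lncRNA and 6 as protein coding (LINC00493, LINC00984, LINC00116, LINC00085, LINC00094 and LINC00176). Another 6 had no match (LINC00221, LINC00618, LINC00341, LINC00624, LINC00849 and LINC00977) and the remaining 7 carried other noncoding or pseudogene types. Exons of 41 members overlapped exons of another gene, and in 33 the overlap included the opposite strand, where reads from a kit that does not mark strand cannot be told apart. In 9 members over 50% of the 31-base words, the read length, occurred at more than 1 place in the genome, among them LINC00657 (63.1%) and LINC00152 (70.6%). LINC00152 shared 340 of its 499 words with MIR4435-2HG. LINC00657 shared 2018 of 5370 with OVCH1-AS1, 921 with ENSG00000284618 and 656 with HCG11. Values of these genes are uncertain to the extent that reads were divided between copies.

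Depth was recovered from the low FPKM values, of which 97.9 to 99.3% lay within 0.15 of a whole multiple of 1 fragment. A level of 1 FPKM of a 1-kilobase transcript stood for 1.93 to 58.3 fragments in the fRIP libraries (median 13.3) and for 12.0 to 30.8 in the inputs. The ADAR libraries were the shallowest, at 1.93 to 2.30 fragments, and the DNMT1 libraries stood at 32.7 to 58.3. The K562 genes HBG1, HBG2, HBE1, GATA1, TAL1 and TFRC had input medians of 46.0 to 944 FPKM. CD3E, ALB and KRT5, genes of other cell types, stayed at or under 0.469 FPKM in every input. Members were listed at 0 in 84 of 5810 fRIP values, 9 of them in the 249 ADAR values.

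Input levels of the members spanned 1.00 to 80.3 FPKM with a median of 4.53, and 22 of the 83 reached 10 FPKM while 24 lay under 2 FPKM. The 6 highest were LINC00273, LINC00534, LINC00657, LINC00958, LINC00470 and LINC00152. LINC00657 had 63.8 ± 6.15 FPKM (mean ± SD, n = 9 inputs), LINC00958 had 61.4 ± 6.66, LINC00470 had 52.3 ± 8.76 and LINC00152 had 43.6 ± 7.96. LINC00534 had 72.6 ± 14.4. LINC00273 had the highest mean and the widest spread of these, 80.3 ± 47.3 FPKM, and its 3 input sets averaged 19.5, 119 and 102 FPKM. Across all 83 members the highest input set mean was 1.06 to 7.88 times the lowest (median 1.46), and it was over 2 times the lowest for 17 members. LINC00571 (7.88 times), LINC00273 (6.11), LINC00674 (3.43) and LINC00515 (3.43) differed most, and LINC00116 differed 2.85 times. At the threshold, LINC00115 (1.00 FPKM), LINC00964 (1.01) and LINC00515 (1.08) were just inside, and LINC00638 (0.947), LINC00311 (0.906) and LINC00870 (0.851) just outside.

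Each fRIP was set against the 9 inputs, the comparison the study was built on. A gene was called when limma on log2(FPKM + 1) gave a log2 difference beyond 1 in size at an adjusted p under 0.05 (Benjamini-Hochberg). Summed over the 24 fRIPs, 213 of 1992 pairs of member and protein were called enriched and 151 depleted, beside 6.9% and 5.52% of pairs over all 25442 genes tested. Between 12 and 32 members were called in either direction for each RBP and for CBP, CHD4, DNMT1, EZH2, LSD1, PCAF, PHF8, SUZ12 and WDR5. The counts were 27 for ADAR (all genes 30.9%), 27 for HNRNPH1 (32.4%), 24 for HNRNPU (15.7%), 13 for HUR (13.4%), 16 for IMP1 (14.7%) and 32 for PABP (25.8%). Among the CAPs with many calls they were 32 for EZH2 (19.6%), 31 for DNMT1 (16.4%), 24 for CHD4 (12.7%), 23 for WDR5 (10.6%) and 22 for SUZ12 (23.9%). PCAF had 17 (9.05%), LSD1 13 (7.48%), CBP 12 (12.9%), PHF8 12 (4.9%), CBX3 10 (11.1%), HDAC1 10 (13.8%), NUP98 8 (5.38%) and phospho-CBX3 6 (5.49%). RBBP5 had 2 (3.01%), STAG2 2 (4.34%) and CHD1 1 (1.43%). CHD7 and CTCF had 0 by limma (all genes 1.89% and 1.21%), with log2 differences from input of -0.93 to 0.98 and -0.99 to 0.81, and at an unadjusted p under 0.05 CHD7 had 10 members higher and 9 lower and CTCF 4 and 16. Since the rule used the inputs, nothing is read from these shares.

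To tell the proteins apart, each fRIP was tested against the mean of the other 23 fRIPs in the same limma fit, and all log2 differences from here on are of this kind, on the log2(FPKM + 1) scale, which understates changes of low genes. Of 1992 pairs, 203 were called higher (10.2%, all genes 6.84%) and 154 lower (7.73%, all genes 4.24%). All 357 were also called in a fit of the 70 fRIP libraries alone, in which no input enters the spread. At least 1 fRIP was called higher for 75 members and lower for 52, 90.4% and 62.7%, and 51 members had both (61.4%). Over all genes tested the shares were 75.8%, 41.8% and 39%, and over the 16830 genes with a mean input of at least 1 FPKM they were 87.1%, 62.7% and 58.5%, close to those of the members. LINC00977, LINC00355, LINC00656, LINC00240, LINC00839, LINC00884 and LINC00964 had neither. Members were called higher in 1 fRIP in 15 cases (18.1%), in 2 in 25 (30.1%) and in 3 in 19 (22.9%). Among genes with that input level these shares were 28%, 25.8% and 17.3%, and among all genes tested 29.6%, 21.8% and 13.2%. LINC00273 (8 higher, 9 lower), LINC00861 (7 and 9) and LINC00894 (7 and 8) had the most. The RBPs held 98 of the higher calls, 19.7% of their 498 pairs beside 15.1% over all genes, and the CAPs 105, 7.03% of 1494 beside 4.07%. Of the lower calls the RBPs held 57 (11.4%, all genes 7.93%) and the CAPs 97 (6.49%, all genes 3.01%). Genes of the same kind and level give a closer background in some fRIPs. Of 2452 other lncRNAs with an input of at least 1 FPKM, 48.4% were called higher in HNRNPH1, 44.3% in ADAR, 34.5% in HNRNPU, 11.7% in DNMT1 and 11.5% in EZH2. In the other direction 35.0% of them were called lower in PABP, 29.0% in PCAF, 24.7% in CHD4 and 20.1% in IMP1. Median levels differed between libraries: centring each library on its own median lowered the log2 differences by 1.04 in ADAR, 0.78 in HNRNPH1 and 0.63 in HNRNPU, and raised them by up to 0.62 in PCAF. Centred, 210 pairs were called higher and 144 lower (all genes 6.6% and 6.04%). Of these the RBPs held 86 and 92 (all genes 10.6% and 17.9%) and the CAPs 124 and 52 (5.26% and 2.08%). Of the 203 pairs called higher on the deposited scale 153 were also called centred, and of the 154 lower 77. Between the scalings the split within single proteins moved, and it is given beside the counts where the share of higher calls moved by over 10 percentage points.

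**Figure D1:**
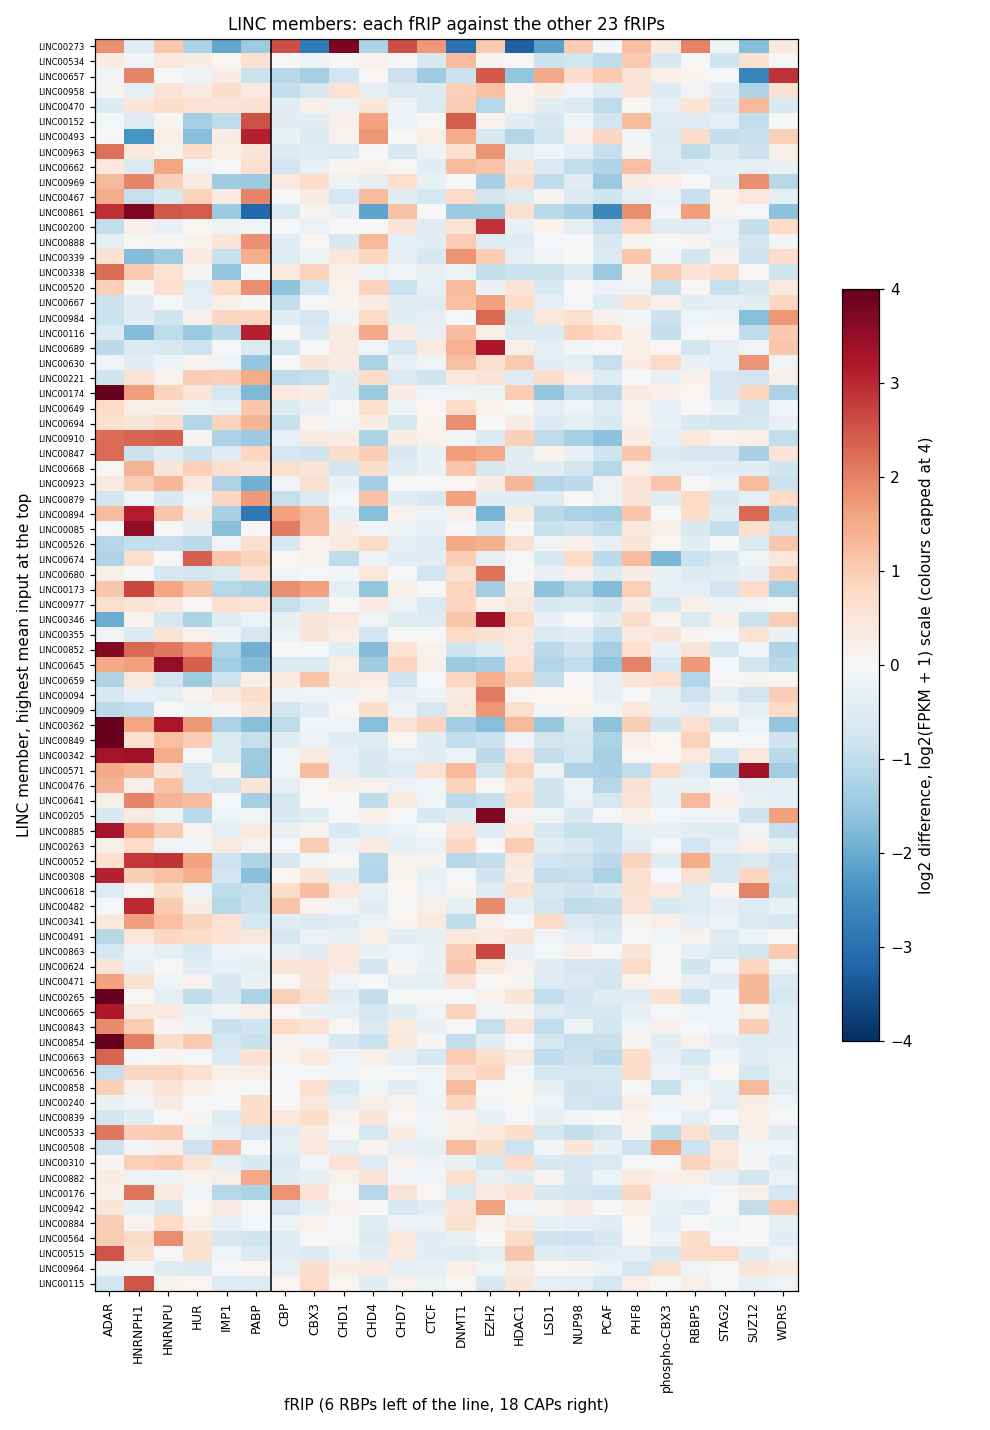
Log2 difference (log2(FPKM + 1) scale, colour, capped at 4) of each of the 83 members (rows, highest mean input at the top) in each fRIP (columns, the 6 RBPs left of the line) from the mean of the other 23 fRIPs. Red cells gather in the ADAR, HNRNPH1, HNRNPU, DNMT1 and EZH2 columns, and LINC00273, LINC00657 and LINC00861 run from dark red to dark blue along their rows.

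**Figure D2:**
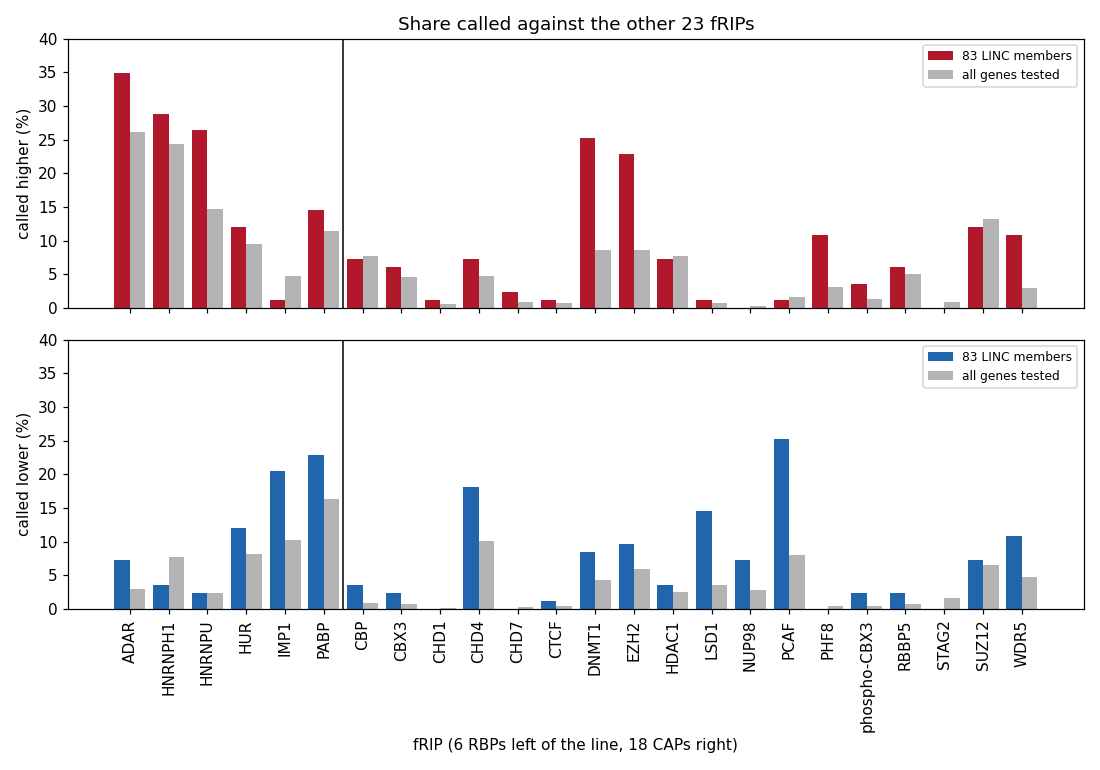
Percent of the 83 members (coloured bars) and of all 25442 genes tested (grey bars) called higher (top) or lower (bottom) in each fRIP than in the other 23. In DNMT1 25.3% of members were called higher beside 8.6% of all genes and 11.7% of 2452 other lncRNAs with an input of at least 1 FPKM, and in PCAF 25.3% were called lower beside 8.05% of all genes and 29.0% of those other lncRNAs.

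ADAR, the adenosine deaminase that edits double-stranded RNA, had on the deposited scale the most members called higher, 29 of 83 (34.9%, all genes 26.1%), and 6 lower (7.23%, all genes 2.89%). Centred, 18 were higher and 32 lower (all genes 11.9% and 42%), so the balance turned with the scaling for the members and for all genes. The largest rise was of LINC00362, an RNA of 264 bases on chromosome 13, which had 76.5, 112 and 83.9 FPKM in the ADAR libraries. In the 67 other fRIP libraries it ran from 0 through a median of 0.763 to 39.9 FPKM, so no other library reached the ADAR values, and the 9 inputs spanned 0 to 11.1 FPKM. The log2 difference was 5.08 (SE 0.46, adjusted p = 5.08e-15, n = 3). LINC00346, a 1-exon RNA of 6344 bases on chromosome 13, was the member furthest below, at 0, 4.02 and 1.04 FPKM beside 1.61 to 90.4 FPKM elsewhere (median 6.30). Its log2 difference was -1.98 (SE 0.26, adjusted p = 1.19e-09).

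HNRNPH1, a splicing factor that binds runs of G, had 24 members higher (28.9%, all genes 24.3%) and 3 lower (3.61%, all genes 7.68%), or 15 and 21 centred (all genes 9% and 25.6%). LINC00861 rose most, at 265, 227 and 162 FPKM. The other libraries ran from 1.14 to 189 FPKM with a median of 14.8, and 1 of the 67 lay above the lowest HNRNPH1 value. The log2 difference was 3.74 (SE 0.21, adjusted p = 5.00e-23). LINC00493 was furthest below, at 8.41, 5.52 and 1.79 FPKM, with 2 of the 67 other libraries under the highest of these and a median elsewhere of 25.4. It fell by 2.36 on the log2 scale (SE 0.19, adjusted p = 5.24e-17).

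HNRNPU, also called SAF-A, is a nuclear matrix protein that binds RNA and chromatin. It had 22 members higher (26.5%, all genes 14.7%) and 2 lower (2.41%, all genes 2.32%), and centred 7 and 15 (all genes 6.13% and 18%). LINC00645, a 4-exon RNA of 3495 bases on chromosome 14 with little repeated sequence (0.355% of its words), had 31.7, 32.0 and 39.2 FPKM in the HNRNPU libraries. All other fRIP libraries were lower, from 0.0149 to 20.4 FPKM (median 1.33), and the log2 difference was 3.50 (SE 0.19, adjusted p = 3.53e-23). LINC00339 was furthest below, at 5.84, 6.00 and 8.30 FPKM beside a median of 18.2 elsewhere, with a log2 difference of -1.43 (SE 0.16, adjusted p = 2.41e-11). Exons of other genes on the opposite strand cover 56.1% of it, among them those of CDC42-AS1.

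HUR, which binds AU-rich elements and stabilises its mRNAs, had 10 members higher (12%, all genes 9.55%) and 10 lower (12%, all genes 8.08%), or 7 and 12 centred (all genes 5.55% and 13.2%). LINC00861 again rose most, at 98.6, 76.7 and 95.0 FPKM, and 9 of the 67 other libraries exceeded the lowest of these. The log2 difference was 2.44 (SE 0.21, adjusted p = 6.97e-15). LINC00493 fell most, at 7.12, 7.29 and 8.44 FPKM, with 3 other libraries under the highest value and a log2 difference of -1.70 (SE 0.19, adjusted p = 1.73e-11). Across the 76 members with a sequence, the log2 difference in HUR had a Spearman rho of 0.19 with the density of ATTTA, the core of AU-rich elements, and that in HNRNPH1 a rho of 0.07 with the density of GGGA. ATTTA occurred in 63.2% of members and 62.5% of all lncRNA transcripts, and GGGA in 89.5% and 95.6%.

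IMP1, a cytoplasmic protein that binds and stabilises mRNAs such as that of MYC, had 1 member higher (1.2%, all genes 4.73%) and 17 lower (20.5%, all genes 10.3%), whereas centred 13 were higher and 3 lower (all genes 11.6% and 1.91%). The member furthest above was LINC00508, an RNA of 194 bases, at 3.75, 1.77 and 3.54 FPKM with a median of 0 in the other libraries (log2 difference 1.24, SE 0.50, adjusted p = 0.0327). Without the first or the third IMP1 library its log2 difference was 1.10 (adjusted p = 0.147) or 1.13 (adjusted p = 0.133). LINC00273 was furthest below, at 2.90, 5.94 and 5.77 FPKM beside a median of 27.0 elsewhere (log2 difference -2.08, SE 0.44, adjusted p = 6.49e-05).

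PABP, which coats the poly(A) tails of mRNAs, had 12 members higher (14.5%, all genes 11.5%) and 19 lower (22.9%, all genes 16.3%), or 26 and 9 centred (all genes 19.6% and 6.79%). The 3 members furthest above were both microprotein genes and LINC00152. LINC00116 had 65.7, 64.3 and 67.7 FPKM in the PABP libraries, more than any of the 67 other fRIP libraries (1.01 to 32.0 FPKM, median 6.67) or any input (4.58 to 17.1). Its log2 difference was 3.12 (SE 0.29, adjusted p = 1.21e-14). LINC00493 had 212 ± 37.4 FPKM in PABP (SD, n = 3), with a log2 difference of 3.12 (SE 0.19, adjusted p = 3.49e-22), and its next highest protein mean was 85.9 FPKM in CHD4. LINC00152 averaged 197 FPKM, with a log2 difference of 2.55 (SE 0.13, adjusted p = 1.49e-25). LINC00861 lay at the other end, at 1.14, 1.14 and 1.47 FPKM, below each of the 67 other libraries (2.07 to 265 FPKM), and fell by 3.13 on the log2 scale (SE 0.21, adjusted p = 7.80e-20).

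LINC00116 was also called higher in CHD4, DNMT1 and WDR5 and lower in HNRNPH1, HNRNPU, HUR, IMP1 and SUZ12. Centred, its log2 difference in IMP1 was -0.58 (adjusted p = 0.125). Without the first HNRNPU library that in HNRNPU was -0.62 (adjusted p = 0.145), and without the second SUZ12 library that in SUZ12 was -0.82 (adjusted p = 0.0518). Its 3 input sets averaged 5.25, 14.9 and 14.1 FPKM. HNRNPH1, HNRNPU, IMP1 and SUZ12, and also CHD4 and DNMT1, match the set at 5.25, WDR5 that at 14.9, and HUR and PABP that at 14.1. The part of the input sets in these calls was not tested. For LINC00493 the lowest protein means were those of HNRNPH1 (5.24 FPKM), HUR (7.62) and HDAC1 (11.2). The 6 members typed as protein coding had their highest median log2 difference in WDR5 (0.98), then in PABP (0.79) and CHD4 (0.47), and their lowest in SUZ12 (-0.83). In PABP all 83 members had a median of -0.05 and all genes tested -0.24.

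**Figure D3:**
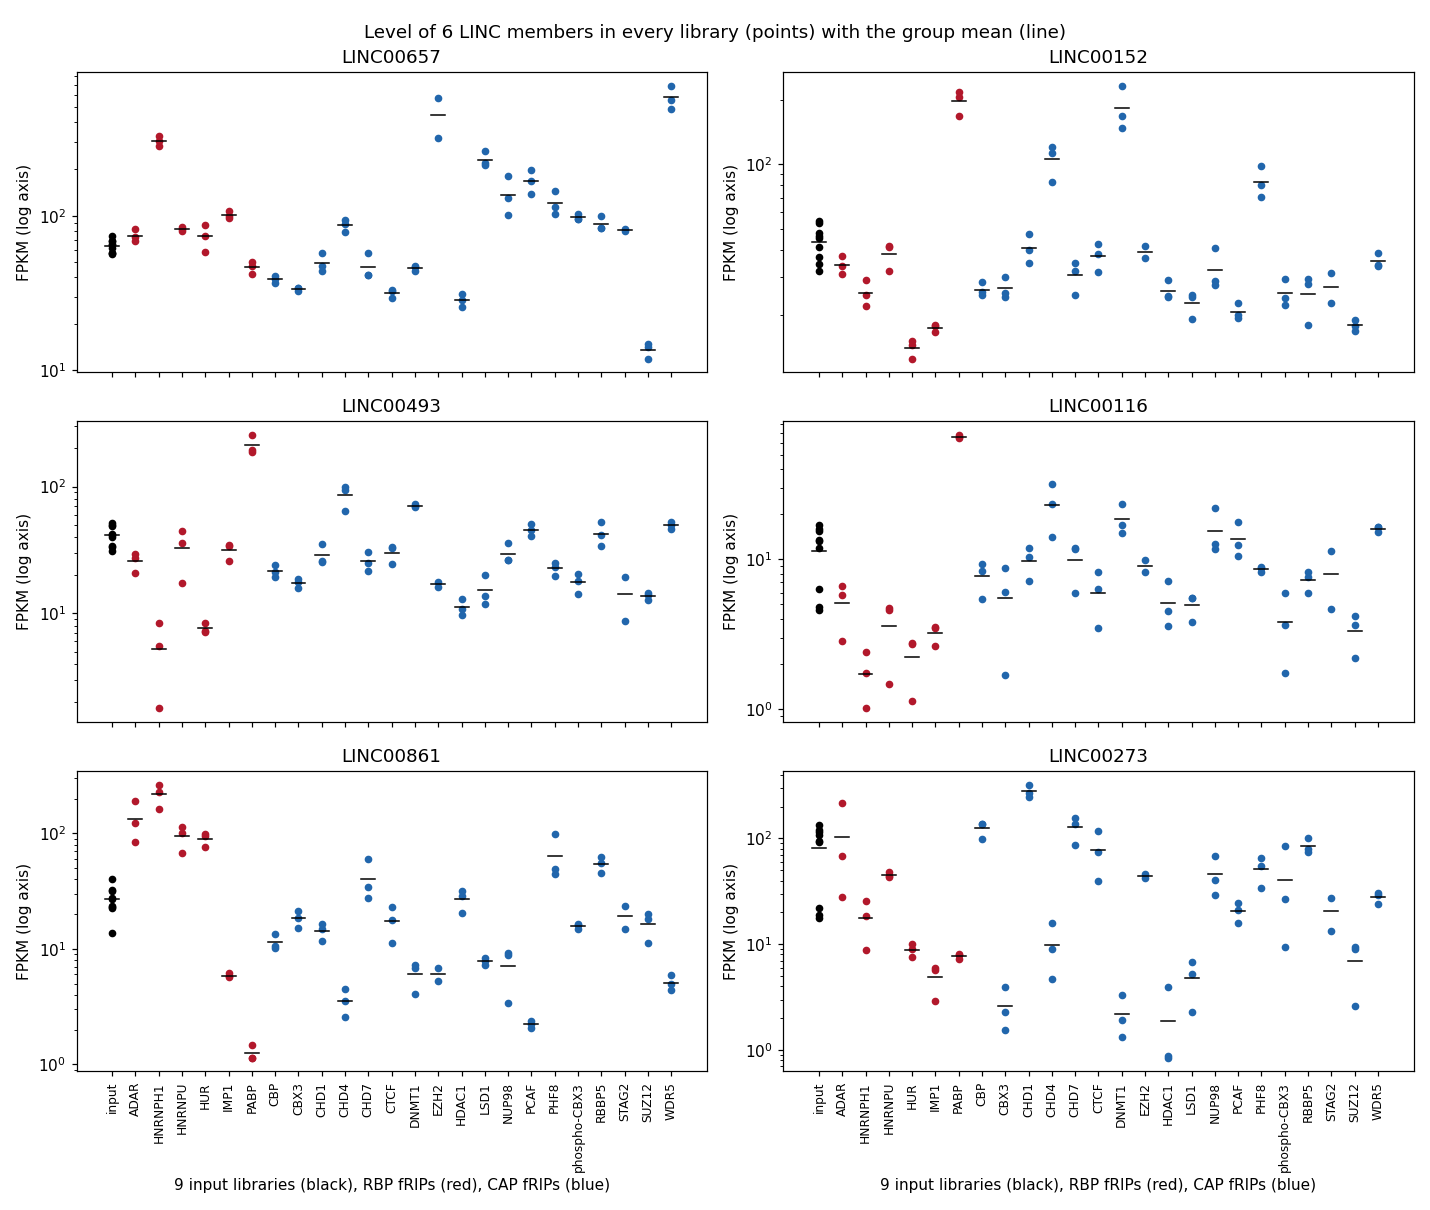
FPKM (log axis) of LINC00657, LINC00152, LINC00493, LINC00116, LINC00861 and LINC00273 in each of the 79 libraries (points), by input and protein, with the group mean as a line. LINC00116 stands at 64.3 to 67.7 FPKM in PABP above every other library, and LINC00657 at 490 to 693 FPKM in WDR5 and at 11.9 to 14.8 in SUZ12.

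WDR5 and RBBP5 are core subunits of the complexes that methylate lysine 4 of histone H3, and EZH2 and SUZ12 of Polycomb repressive complex 2, which methylates lysine 27. LINC00657 was high in WDR5 and EZH2 and low in SUZ12. In RBBP5 it had 82.7, 83.2 and 99.8 FPKM, beside a median of 81.7 over the 70 fRIP libraries, and was not called. WDR5 libraries held 560, 490 and 693 FPKM of it, and 1 of the 67 other libraries, from EZH2, exceeded the lowest of these. The log2 difference in WDR5 was 2.90 (SE 0.11, adjusted p = 2.53e-29), and in EZH2, at 319 and 579 FPKM, it was 2.47 (SE 0.14). SUZ12 libraries held 11.9, 14.1 and 14.8 FPKM, less than any of the 67 other libraries (25.6 to 693 FPKM) and any input (56.3 to 74.2). That log2 difference was -2.63 (SE 0.11, adjusted p = 1.35e-28). Beyond these proteins, LINC00657 was called higher in HNRNPH1, at 302, 281 and 327 FPKM, and in LSD1 and PCAF. It was also called lower in CBP, CBX3, CTCF and HDAC1. HCG11, a lncRNA that shares 12.2% of the words of LINC00657, averaged 107 FPKM in WDR5, 67.4 in EZH2 and 3.98 in SUZ12 beside an input median of 13.7. OVCH1-AS1, which shares 37.6%, averaged 0.611 FPKM in WDR5, 0.0489 in EZH2 and 0 in SUZ12, and no input exceeded 0.0911. ENSG00000284618, which shares 17.2%, has no listed value.

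Among the members as a whole, WDR5 had 9 higher (10.8%, all genes 2.94%) and 9 lower (10.8%, all genes 4.8%), or 17 and 2 centred (all genes 8.04% and 0.869%). EZH2, with 2 libraries, had 19 higher (22.9%, all genes 8.65%) and 8 lower (9.64%, all genes 5.9%). LINC00205, a 2-exon RNA of 1457 bases on chromosome 21, stood furthest above in EZH2, at 43.3 and 96.2 FPKM. The 68 other libraries reached at most 20.5 FPKM and the inputs 3.90, and the log2 difference was 3.73 (SE 0.22, adjusted p = 2.67e-22). LINC00894 was furthest below in EZH2, at 1.60 and 1.20 FPKM beside a median of 7.82 elsewhere (log2 difference -1.87, SE 0.30, adjusted p = 4.44e-07). SUZ12 had 10 higher (12%, all genes 13.2%) and 6 lower (7.23%, all genes 6.54%). LINC00571 was furthest above in SUZ12 with 84.2, 77.0 and 6.33 FPKM, so that its 3 libraries differed widely and 16 other libraries exceeded the lowest (log2 difference 3.37, SE 0.65, adjusted p = 1.29e-05). RBBP5 had 5 higher (6.02%, all genes 5.02%) and 2 lower (2.41%, all genes 0.766%), or 5 and 6 centred (all genes 2.96% and 2.87%).

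DNMT1, the maintenance DNA methyltransferase, had the deepest libraries by median and 21 members higher (25.3%, all genes 8.6%) against 7 lower (8.43%, all genes 4.29%). Among the 16830 tested genes with an input of at least 1 FPKM, 12.2% were higher, and the median log2 difference was 0.11 there, 0.57 over the members and -0.25 over 2452 other lncRNAs of that input level. LINC00152 rose most in DNMT1, at 147, 167 and 232 FPKM. The other libraries had a median of 29.1, and 3 of the 67, those of PABP, were above the lowest DNMT1 value. The log2 difference was 2.41 (SE 0.13, adjusted p = 3.19e-23). MIR4435-2HG, with which LINC00152 shares sequence, averaged 134 FPKM in DNMT1 and 96.2 in PABP beside an input median of 52.6. It averaged 180 FPKM in EZH2, where LINC00152 had 36.8 and 41.9 FPKM and was not called. LINC00273 was furthest below, at 3.30, 1.93 and 1.34 FPKM (log2 difference -2.99, SE 0.44, adjusted p = 6.50e-08).

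CHD4, the remodeller of the NuRD complex, had 6 members higher (7.23%, all genes 4.77%) and 15 lower (18.1%, all genes 10.1%), or 15 and 7 centred (all genes 11.3% and 3.26%). LINC00493 led the rises, at 93.9, 64.2 and 99.7 FPKM beside a median of 24.3 elsewhere (log2 difference 1.76, SE 0.19, adjusted p = 7.47e-12), and LINC00152 (1.60, SE 0.13) and LINC00116 (1.52, SE 0.29) followed. LINC00861 fell most, at 3.53, 4.49 and 2.54 FPKM beside a median of 15.96 (log2 difference -2.10, SE 0.21, adjusted p = 1.54e-12).

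LSD1, a histone demethylase, PCAF, a histone acetyltransferase, and NUP98, a nuclear pore protein, had member medians below those of the other fRIPs, with median log2 differences of -0.54, -0.74 and -0.54. Other lncRNAs with an input of at least 1 FPKM had much the same medians, -0.55, -0.74 and -0.50, and all genes tested had -0.21, -0.24 and -0.18. LSD1 had 1 member higher (1.2%, all genes 0.79%) and 12 lower (14.5%, all genes 3.51%), or 3 and 4 centred (all genes 3.4% and 0.334%). PCAF had 1 higher (1.2%, all genes 1.55%) and 21 lower (25.3%, all genes 8.05%, other lncRNAs of that input level 29.0%), or 3 and 3 centred (all genes 11.6% and 0.971%). NUP98 had 0 higher by limma (all genes 0.24%, 6 members at an unadjusted p under 0.05) and 6 lower (7.23%, all genes 2.82%), but 4 and 0 centred (all genes 2.24% and 0.338%). The member that rose in both LSD1 and PCAF was LINC00657. It had 260, 220 and 211 FPKM in LSD1 (log2 difference 1.52, SE 0.11, adjusted p = 1.47e-16) and 168, 137 and 197 in PCAF (1.04, SE 0.11, adjusted p = 6.52e-11), beside a median of 80.1 in the other libraries. Without the third PCAF library the difference there was 0.91, under the size asked of a call. In NUP98 the largest rise at an adjusted p under 0.05 was of LINC00116, at 11.8, 12.6 and 22.1 FPKM, with a log2 difference of 0.96 (SE 0.29, adjusted p = 0.00909), under the size asked of a call. The input set matched to NUP98 averaged 14.9 FPKM of LINC00116, beside 15.5 in NUP98 itself. Without the third NUP98 library the log2 difference was 0.69 (adjusted p = 0.202).

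CHD1 and CHD7, chromatin remodellers, and CTCF, the DNA binding factor that shapes chromatin loops, had few calls. CHD1 had 1 member higher (1.2%, all genes 0.55%) and 0 lower by limma (all genes 0.149%, 14 at an unadjusted p under 0.05). CHD7 had 2 higher (2.41%, all genes 0.821%) and 0 lower (all genes 0.212%, 19 unadjusted), and CTCF 1 of each (1.2%, all genes 0.7% and 0.35%). LINC00273, a 1-exon RNA of 1452 bases with 70.4% GC on chromosome 16, led all 3. It had 246, 323 and 267 FPKM in CHD1, above every other library (0.849 to 216 FPKM, median 24.1), and a log2 difference of 3.78 (SE 0.44, adjusted p = 7.79e-09). In CHD7 it had 157, 137 and 86.9 FPKM (2.57, SE 0.44, adjusted p = 1.65e-05), and in CTCF 39.7, 74.5 and 117 (1.73, SE 0.44, adjusted p = 0.0027). Without the third CTCF library that difference was 1.37 (adjusted p = 0.0784). It also led in CBP, at 138, 137 and 98.7 FPKM (2.57, SE 0.44, adjusted p = 2.41e-06), and in RBBP5, at 73.7, 101 and 79.1 (1.99, SE 0.44, adjusted p = 0.000231).

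Of the members in the plot of levels by library, LINC00273 had wide extremes, from a mean of 1.89 FPKM in HDAC1 to 279 in CHD1. Its input sets differed too, and the fRIPs are nearest, by the input values in the deposited comparisons, to different sets. CHD1 and RBBP5 belong to the set that averaged 119 FPKM, CBP and CHD7 to that at 102, and DNMT1, IMP1, HDAC1 and CTCF to that at 19.5. ADAR, called higher at 27.9 to 216 FPKM, belongs to the set at 19.5, and PABP, called lower, to that at 102. Neither was called centred, at a log2 difference of 0.79 (adjusted p = 0.111) in ADAR and -0.92 (adjusted p = 0.0817) in PABP, and without the third ADAR library that in ADAR was 1.07 (adjusted p = 0.0644). The part of these input differences in its calls was not tested.

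CBP, an acetyltransferase, had 6 members higher (7.23%, all genes 7.78%) and 3 lower (3.61%, all genes 0.869%), or 7 and 2 centred (all genes 8.88% and 0.456%). CBX3, the heterochromatin protein HP1 gamma, had 5 higher (6.02%, all genes 4.65%) and 2 lower (2.41%, all genes 0.778%), or 4 and 3 centred (all genes 2.88% and 1.8%). LINC00173, with a leading isoform of 314 bases, stood furthest above in CBX3, at 20.1, 24.7 and 8.88 FPKM beside a median of 4.09 (log2 difference 1.65, SE 0.36, adjusted p = 0.000202). The fRIP of its phosphorylated form, phospho-CBX3, had 3 higher (3.61%, all genes 1.33%) and 2 lower (2.41%, all genes 0.366%), or 3 and 1 centred (all genes 1.52% and 0.263%). LINC00508 was furthest above there, at 11.3, 3.41 and 1.24 FPKM (log2 difference 1.59, SE 0.50, adjusted p = 0.0176). Without the first library the log2 difference was 0.94 (adjusted p = 0.377), and without the second it was 1.67 (adjusted p = 0.0553).

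HDAC1, a deacetylase, had 6 members higher (7.23%, all genes 7.66%) and 3 lower (3.61%, all genes 2.52%), or 1 and 4 centred (all genes 4.08% and 8.88%). LINC00923 led them, at 23.5, 17.4 and 17.4 FPKM beside a median of 6.90, with 6 other libraries above the lowest (log2 difference 1.34, SE 0.19, adjusted p = 3.25e-08). PHF8, a demethylase, had 9 higher (10.8%, all genes 3.16%) and 0 lower by limma (all genes 0.448%, 3 at an unadjusted p under 0.05), and 3 and 0 centred (all genes 1.38% and 1.44%). LINC00645 led them, at 10.3, 7.84 and 20.4 FPKM beside a median of 1.33 (log2 difference 1.99, SE 0.19, adjusted p = 2.14e-12). STAG2, a cohesin subunit measured in 2 libraries, had 0 in either direction by limma (all genes 0.845% and 1.62%), with 3 higher and 24 lower at an unadjusted p under 0.05. LINC00338 (SNHG20) had the largest rise at an adjusted p under 0.05, at 28.5 and 26.3 FPKM beside a median of 16.7. Its log2 difference of 0.70 (SE 0.12, adjusted p = 2.56e-05) was too small for a call.

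The remaining 3 of the 6 members highest in input varied less. LINC00534 ran from a mean of 43.0 FPKM in PCAF to 189 in DNMT1, LINC00958 from 30.5 in SUZ12 to 150 in EZH2, and LINC00470 from 26.5 in EZH2 to 138 in SUZ12. LINC00534 was called higher in DNMT1 (log2 difference 1.23, SE 0.16) and in PHF8 (1.06, SE 0.16). The PHF8 difference was 0.81 centred, 0.994 without the first PHF8 library and 0.995 without the third, each under the size asked of a call. LINC00958 and LINC00470 went opposite ways in the Polycomb fRIPs. LINC00958 had a log2 difference of 1.16 (SE 0.19) in EZH2 and -1.19 (SE 0.16) in SUZ12, and LINC00470 had -1.16 (SE 0.14) and 1.28 (SE 0.11). The EZH2 calls were lost by size, that of LINC00958 at 0.95 without the second library and that of LINC00470 at -0.996 when centred.

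RBPs and CAPs were compared over 24 protein means, 6 against 18, to ask whether these RNAs went with either class. CBX3 and its phosphorylated form were counted separately among the CAPs. The proteins matched to the second input set (CHD1, NUP98, PCAF, RBBP5 and WDR5) were all CAPs. By limma 2 members were higher in the RBP fRIPs (2.41%, all genes 2.22%) and 0 lower (all genes 0.362%), with 20 higher and 4 lower at an unadjusted p under 0.05. The median RBP minus CAP log2 difference was 0.36 over the members, 0.13 over all genes tested, 0.48 over other lncRNAs with an input of at least 1 FPKM and -0.08 over mRNAs of that level. LINC00885, a 3-exon RNA on chromosome 3, averaged 38.4 FPKM in ADAR, 10.9 in HNRNPH1, 7.95 in HNRNPU, 4.76 in PABP, 3.98 in HUR and 2.45 in IMP1. CAP means ran from 1.47 to 5.44 FPKM (median 2.47), so 9 of the 18 lay above the lowest RBP, and the log2 difference was 1.29 (SE 0.33, adjusted p = 0.0337). LINC00854 averaged 33.8 FPKM in ADAR, 7.51 in HNRNPH1, 3.37 in HUR, 2.501 in HNRNPU, 0.347 in IMP1 and 0.221 in PABP. Its CAP means ran from 0.131 to 1.93 FPKM, so 15 of the 18 lay above the lowest RBP, and the log2 difference was 1.36 (SE 0.41, adjusted p = 0.0492). Both were highest in ADAR. Without ADAR neither was called, at a log2 difference of 0.85 (adjusted p = 0.093) for LINC00885 and 0.76 (adjusted p = 0.161) for LINC00854. LINC00885 was also not called without HNRNPH1 (log2 difference 1.19, adjusted p = 0.0742), without HNRNPU (1.28, adjusted p = 0.0872) or with no filter on low values (1.29, adjusted p = 0.0617), and LINC00854 was not called in most fits that left out 1 protein. Without PABP 14 members were higher (all genes 10.6%) and without IMP1 10 (8.93%), so the count rose there with that of all genes. Centred, 0 members were higher (all genes 0.916%) and 1 was lower (all genes 2.92%), LINC00659, at a log2 difference of -1.13 (SE 0.35, adjusted p = 0.0484). On that scale LINC00885 and LINC00854 had differences of 0.91 and 0.98, under the size asked of a call. The adjusted p of LINC00854 was 0.0444 centred, and its highest over the alternatives was 0.161, without ADAR.

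**Figure D4:**
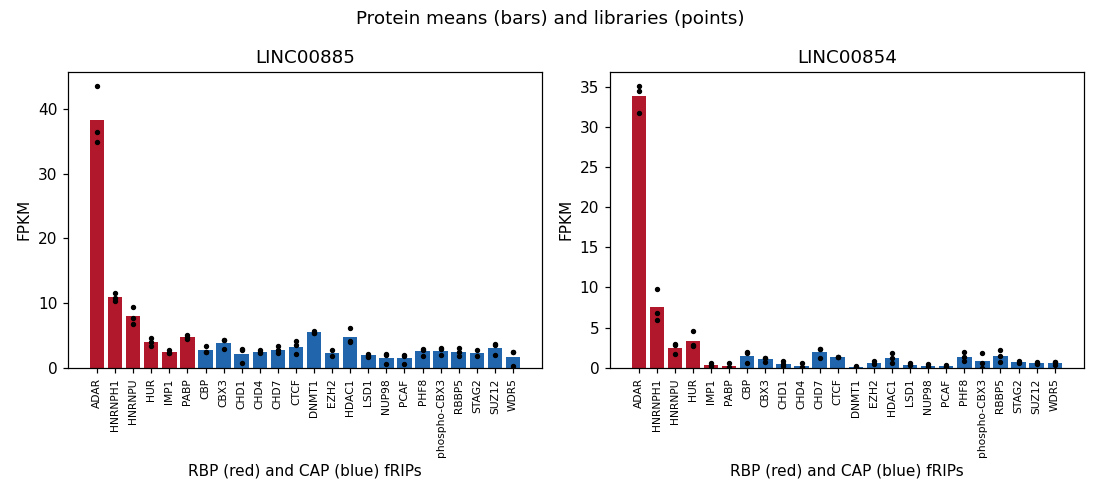
Mean FPKM per protein (bars) with single libraries (points) of LINC00885 and LINC00854 in the RBP fRIPs (red) and CAP fRIPs (blue). The ADAR bars stand at 38.4 and 33.8 FPKM, and the next highest, of HNRNPH1, at 10.9 and 7.51.

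Across the 76 members with a sequence, the log2 differences of single fRIPs followed transcript features weakly. Spearman's rho with GC content ran from -0.43 in RBBP5 to 0.36 in EZH2, with transcript length from -0.28 in DNMT1 to 0.35 in STAG2, and with the share of repeated 31-base words from -0.13 in IMP1 to 0.28 in CBP. These describe members measured in the same libraries. For comparison, a list of 15 well-known lncRNAs without a LINC name, all tested, had 47 of 360 pairs called higher (13.1%, all genes 6.84%) and 43 lower (11.9%, all genes 4.24%). Each of the 15 was called in at least 1 fRIP, as were 78.6% of all genes tested. The extremes of that list both lay in HNRNPH1, where NEAT1, which scaffolds paraspeckles, had a log2 difference of 4.61 (SE 0.20) and MALAT1, a nuclear speckle RNA, one of -6.28 (SE 0.94). Of the list of 6 LINC genes known for microproteins, LINC00116 and LINC00493 were members.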

How the data were processed

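RNA of 70 fRIP libraries and 9 inputs from K562 cells was sequenced by the authors as paired 31-base reads. Per the labels and the study's methods, reads were aligned with TopHat to hg19 and gene levels were computed with Cuffdiff and Cuffnorm, and the deposited values used here are FPKM per gene and library. Deposited fold changes and p-values of the authors' own comparisons were not used.

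The 25442 genes that reached 1 FPKM in 2 or more libraries were fitted as log2(FPKM + 1), pseudocount 1, with limma 3.58.1 in R 4.3.3, using an intensity trend and Benjamini-Hochberg adjustment over all genes tested. Each protein was compared with the 9 inputs and with the mean of the other 23 proteins, and RBPs with CAPs on 1 mean per protein. The fit was tested on simulated data. The inputs enter no difference of the last 2 comparisons, but they share in the estimate of the spread for the comparison with the other 23 proteins, which was also fitted on the 70 fRIP libraries alone. P-values of single proteins measure the spread between libraries, and those of RBPs against CAPs the spread between protein means.

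The members and gene lists were chosen with earlier results of these data known. Named were the 6 members highest in input, the largest rise of each protein with an adjusted p under 0.05 and every library above the median of the other fRIPs, the largest fall for the RBPs, CHD4, DNMT1, SUZ12 and EZH2, the threshold neighbours, the microprotein genes and the RBP against CAP calls. Groups came from the labels. The split into 6 RBPs and 18 CAPs was made here from the study's text.

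Replicate numbers paired the libraries (every correlation of deviations from the group means over 0.1) for CHD1, NUP98, PCAF and WDR5. Alternatives changed the pseudocount, the filter, the scaling, the inputs used and the replicate block, and left out each library in turn. Annotation and sequence were of GENCODE v44 lifted to hg19, later than the release the study counted on, and 77 of 83 members matched. The study's input set of each protein was taken as the nearest to the input values in the deposited comparisons. Some marker genes that were checked are not reported here.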

Additional observations from a re-analysis of the deposited data

Results flagged for a closer look

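Dixon's criterion was applied to the 6 RBP means of both members called in RBPs against CAPs, and in both ADAR stood apart from the other 5, at 33.8 FPKM for LINC00854 and 38.4 FPKM for LINC00885. The means were taken as FPKM, not on the log2(FPKM + 1) scale of the calls, and the criterion was not applied on that scale. Chance alone sets a value apart in about 1 in 20 groups, and these members were picked for being higher in RBPs. The 9 inputs were not tested, since they chose the members and come in 3 sets.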

How the results depend on the processing

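Of 36 named results, 6 crossed the adjusted p threshold under some alternative and none reversed over 2984 values. By size, LINC00657 in PCAF fell under a log2 difference of 1 without the third PCAF library (0.91), and LINC00885 (0.91) and LINC00854 (0.98) did when centred. A pseudocount of 0.1 FPKM raised the pairs called in both directions. The rise was largest for those depleted against input, to 240 (all genes 10.7%), and those lower than in the other fRIPs, to 261 (9.1%). The share of all genes called under the same setting stands in brackets after each count that follows. With that pseudocount the members called against input were 17 for CBX3 (17.2%), 2 for CHD1 (2.7%), 2 for CHD7 (3.13%), 1 for CTCF (2.39%), 22 for LSD1 (16.9%), 19 for NUP98 (14.2%), 29 for PCAF (19.2%), 14 for phospho-CBX3 (10.9%), 4 for RBBP5 (5.33%) and 5 for STAG2 (8.61%). A pseudocount of 0.5 FPKM gave 2 for CHD1 (2.19%), 20 for LSD1 (11.6%), 17 for NUP98 (9.12%), 12 for phospho-CBX3 (7.87%), 4 for RBBP5 (4.45%) and 4 for STAG2 (6.85%). Centring gave 47 for ADAR (46.7%), 14 for HNRNPU (18.4%), 8 for LSD1 (7.17%), 6 for PCAF (14.4%), 7 for PHF8 (4.47%) and 1 for RBBP5 (2.79%). The matched input set gave 1 for CHD7 (2.68%), 4 for CTCF (1.8%), 5 for HDAC1 (8.4%), 12 for HNRNPU (9.19%), 22 for LSD1 (11.7%), 3 for NUP98 (3.38%) and 9 for STAG2 (6.31%). The replicate block gave 4 for STAG2 (5.95%), and the replicate block within the matched input set gave 1 for CHD7 (2.83%), 4 for CTCF (2.03%), 5 for HDAC1 (8.6%), 13 for HNRNPU (9.41%), 23 for LSD1 (12%), 4 for NUP98 (3.7%) and 13 for STAG2 (8.87%). Against the other fRIPs the replicate block gave 205 pairs higher (6.94%) and 162 lower (4.27%) and changed no named call. Leaving out 1 library gave 1 to 3 for CHD1 (1.22 to 1.92%), 0 to 2 for CHD7 (1.71 to 2.28%), 0 to 1 for CTCF (0.877 to 2.02%), 5 to 10 for NUP98 (4.03 to 6.21%), 1 to 4 for RBBP5 (2.74 to 3.75%), 2 to 4 for STAG2 (4.19 to 5.99%) and 5 to 11 for phospho-CBX3 (4.22 to 6.6%). The causes were not tested. A fit of the 70 fRIP libraries alone, chosen after the data were seen, called 204 pairs higher (6.84%) and 154 lower (4.23%) and kept all 357 pairs called. Centred, 230 of the 357 were still called, and of the 357, 93 lost the call in at least 1 fit that left out a library. Members higher in RBPs than in CAPs numbered 1 with a pseudocount of 0.1 or 0.5 FPKM, a filter on the mean or the matched input set (all genes 0.975%, 1.83%, 2.18% and 0.597%), and 0 with no filter (0.159%) or centred (0.916%), where 1 was lower (2.92%). Leaving out 1 protein gave 0 to 14 higher (14 without PABP, all genes 10.6%, and 10 without IMP1, 8.93%) and 0 to 2 lower (2 without PABP, 1.85%). Depth limits low members most in ADAR, and FPKM of transcripts near the fragment length, such as LINC00508, are imprecise.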
